A study of Mus musculus with 18 samples.

Results

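Potassium channel genes were examined through the accessibility of their promoters in mouse brain nuclei. The members were the 92 genes whose symbol consists of Kcn, a subfamily letter or letters and a number, out of 24166 gene names in a table of ATAC-seq read counts. ATAC-seq uses the Tn5 transposase, which inserts sequencing adapters into open DNA, so a count reports how accessible a window is and not how much RNA a gene makes. Each window ran from 1 kb before to 1 kb after an annotated start of transcription. For the 18 genes with more than 1 window, the window with the highest mean count stood for the gene. All 92 passed the filter on low counts in every fit, and their counts ran from 7 to 1821 per library.

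Potassium channels let K+ leave the cell and so set the resting potential, shape the action potential and limit repetitive firing. Voltage-gated alpha subunits (Kcna, Kcnb, Kcnc, Kcnd, Kcnh and Kcnq) open on depolarisation, and silent partners (Kcnf, Kcng, Kcns and Kcnv) form no channel alone but modify the Kcnb channels. Calcium-activated channels (Kcnma, Kcnn) and sodium-activated ones (Kcnt) follow activity, inward rectifiers (Kcnj) include the G protein-gated GIRK channels and the glial channel Kir4.1, and two-pore leak channels (Kcnk) carry background current. Somatostatin interneurons release GABA, and in the central amygdala (CeA) somatostatin neurons take part in learned fear.

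The 18 libraries came from C57BL/6J mice aged 2 to 3 months, with 50000 sorted nuclei each. SOM+ nuclei (genotype WT, SOM-H2B-GFP line) were sorted by their GFP, which marks somatostatin cells. Their mice were labelled Control or Fear-conditioned, and each of CeA and cortex gave 2 libraries per treatment. Bulk nuclei were sorted by the DNA stain NucBlue alone, so all cell types could enter, and their SOM-Erbb4-KO line had the treatment Control. They comprised 3 KO libraries per region, with Erbb4 deleted in SOM+ cells only, and 2 WT libraries per region. In the labels, bulk WT libraries share the genotype entry of the KO libraries, so their titles were used to tell them apart. The cortex tissue is called PFC in the protocol, both regions were microdissected, and nuclei were sorted into technical replicates. P-values therefore measure the spread between these libraries, which may be technical. That spread was pooled in part over windows in every fit, and almost wholly in the fit of SOM+ libraries. There a member's own spread between libraries hardly enters its p-value, and the very small p-values rest on that pooling. SOM+ and bulk libraries also differ in mouse line and gate, and these cannot be told apart from cell type.

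The labels of 4 bulk libraries went against their own reads. KO replicate 2 of each region, labelled male, had 0 counts over 5 Y-linked promoters, and WT replicate 1 of each region, labelled female, had Y-linked counts. They are called here by their labels, and the count of members called in each comparison that rests on bulk nuclei is given with and without them. Promoter counts per library ran from 2648959 to 7727263 in CeA SOM+, 9452310 to 14668694 in cortex SOM+, 2751769 to 7220446 in CeA bulk and 5146020 to 7939962 in cortex bulk. The ratio of open ribosomal protein promoters to closed olfactory receptor promoters was 17.4 to 35.05 in CeA SOM+, 51.9 to 72.5 in cortex SOM+ and 9.67 to 19.0 in bulk. The Sst promoter itself did not separate the gates, at 11.6 to 26.4 CPM in CeA SOM+ and 12.7 to 25.7 in CeA bulk. Over 12 somatostatin neuron markers, the summed level was 475 to 515 CPM in cortex SOM+ against 228 to 340 in cortex bulk, but 194 to 213 in CeA SOM+ against 208 to 268 in CeA bulk. Over 12 GABAergic markers, CeA SOM+ (665 to 796 CPM) overlapped CeA bulk (555 to 791), while cortex SOM+ (912 to 995) stood far above cortex bulk (280 to 324). No marker was at 0 in any group.

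Promoter sequence differs widely within the family, and the 4 promoters below are shown because their genes were among those that differed most between kinds of nuclei or regions. They are RefSeq sequences from build GRCm38.p6, 250 bases before to 50 after a start, 5′ to 3′ along the gene, with CG dinucleotides in capitals. The counts are on build mm9 and the sequences on another, so the coordinates are not interchangeable. Kcnt2 encodes a sodium-activated channel (chr1:140245468-140245767, plus strand), Kcnc1 the fast Kv3.1 (chr7:46396218-46396517, plus strand), Kcnmb2 a BK channel beta subunit (chr3:31902453-31902752, plus strand) and Kcna5 the voltage-gated Kv1.5 (chr6:126535506-126535805, minus strand).
Kcnt2: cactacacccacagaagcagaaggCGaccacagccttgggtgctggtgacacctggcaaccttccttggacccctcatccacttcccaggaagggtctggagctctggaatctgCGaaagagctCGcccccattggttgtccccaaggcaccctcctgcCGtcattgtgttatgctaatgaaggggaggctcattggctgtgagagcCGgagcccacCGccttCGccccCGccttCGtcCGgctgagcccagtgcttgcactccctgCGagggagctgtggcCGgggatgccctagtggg
Kcnc1: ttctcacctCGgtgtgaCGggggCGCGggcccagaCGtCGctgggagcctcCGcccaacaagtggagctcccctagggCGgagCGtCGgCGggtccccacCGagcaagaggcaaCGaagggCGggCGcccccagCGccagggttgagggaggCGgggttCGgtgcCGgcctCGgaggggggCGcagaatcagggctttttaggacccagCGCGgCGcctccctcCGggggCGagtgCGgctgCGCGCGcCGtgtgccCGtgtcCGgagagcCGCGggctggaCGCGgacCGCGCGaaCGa
Kcnmb2: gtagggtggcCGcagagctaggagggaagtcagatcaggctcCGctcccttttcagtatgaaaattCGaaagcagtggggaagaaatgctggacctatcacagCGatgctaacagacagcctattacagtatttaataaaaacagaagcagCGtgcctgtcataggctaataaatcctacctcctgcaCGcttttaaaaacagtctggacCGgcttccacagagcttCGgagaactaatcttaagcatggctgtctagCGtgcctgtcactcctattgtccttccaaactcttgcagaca
Kcna5: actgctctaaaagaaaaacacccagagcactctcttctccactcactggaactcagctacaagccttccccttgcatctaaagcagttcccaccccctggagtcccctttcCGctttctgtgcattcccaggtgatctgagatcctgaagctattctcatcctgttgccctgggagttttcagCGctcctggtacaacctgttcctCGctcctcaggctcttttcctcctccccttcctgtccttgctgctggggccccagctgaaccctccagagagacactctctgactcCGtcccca
The Kcnc1 promoter was 74.7% G or C with 41 CG dinucleotides, Kcnt2 had 62.7% and 12, Kcna5 55% and 4, and Kcnmb2 47.7% and 9. The promoter table held 67 of the 92 members by symbol, and 46 of them had 1 promoter and 1 window and could be set beside all 14247 such genes, themselves included. Their median G and C content was 61.2% against 56.3%, but their median number of CG dinucleotides was 10.5 against 13. GGGCGG, read on both strands, lay in 56.5% of the 46 promoters against 46.3% of all. CCAAT lay in 23.9% against 39.0%, TATAAA in 6.52% against 13.5%, CACGTG in 10.9% against 8.17%, and TGACGTCA in 0 against 2.44%. Kcnc1 held 3 copies of GGGCGG, and the other 3 promoters shown held 0. These are letter matches in a 300-base window. Across the 46 members, accessibility was correlated with G and C content (Spearman rho 0.514) and with CG dinucleotides (rho 0.582), across genes that share the same libraries and are not replicates.

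Members spanned a wide range of accessibility. Levels are counts per 1000000 promoter counts after TMM scaling (CPM), divided by window length in kb and averaged over the 8 groups. The median member had 16.2 CPM per kb against 9.75 over all windows, and 58 members (63.0%) lay above that median window. Kcnn2, the small-conductance SK2 channel of the after-hyperpolarisation, was highest at 71.3 CPM per kb. It was followed by Kcnab2 (48.5), a cytoplasmic Kv1 beta subunit, Kcnj2 (44.9), the inward rectifier Kir2.1, Kcnq3 (42.1), an M-current subunit, and Kcnmb4 (37.3), the neuronal BK beta subunit. The 5 lowest were Kcnj15 (1.87), the intermediate-conductance Kcnn4 (2.36) of blood cells, the sperm channel Kcnu1 (2.40), the renal Kcnj1 (2.56) and the retinal modifier Kcnv2 (2.59).

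The spread within subfamilies was narrow for some and wide for others. Of the Kcnc genes, Kcnc4 had 19.1 CPM per kb, Kcnc1 21.1 and Kcnc2 21.3. Kcna ran from 4.31 at Kcna10 to 36.2 at Kcna1, and Kcnk from 4.00 at Kcnk18 to 31.5 at Kcnk12. Kcnj, with 15 genes, ran from Kcnj15 to Kcnj2 with a median of 8.66, and 3 of the 4 Kcne ancillary subunits stayed below 3.3 (2.68, 2.85 and 3.26), while Kcne3 had 12.0. Kcnh ran from 3.79 at Kcnh6 to 36.9 at Kcnh2, Kcnq from 3.43 at Kcnq1 to Kcnq3, and Kcnd from 4.39 at Kcnd1 to 27.3 at Kcnd3. Kcnip ran from 11.5 at Kcnip1 to 22.1 at Kcnip2 and Kcnab from 11.5 at Kcnab3 to Kcnab2, and Kcnb2 was at 5.28. The BK genes ran from 3.31 at Kcnmb1 to Kcnmb4, and the Kcnt and Kcnu genes from Kcnu1 to 21.6 at Kcnt2. Kcnv1 (33.4) led the modifier subunits and Kcnv2 closed them. Between the highest and the lowest group, 67 members varied over 2-fold in mean CPM. Each mean rests on 2 or 3 libraries, and the share of all windows varying so was not counted. Kcnj16 (6.56-fold), Kcnt2 (6.47-fold) and Kcns3 (5.78-fold) varied most and Kcnab1 least, at 1.26-fold. The lowest group of Kcnj16, cortex SOM+ fear, had only 3.59 and 1.97 CPM.

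**Figure D1:**
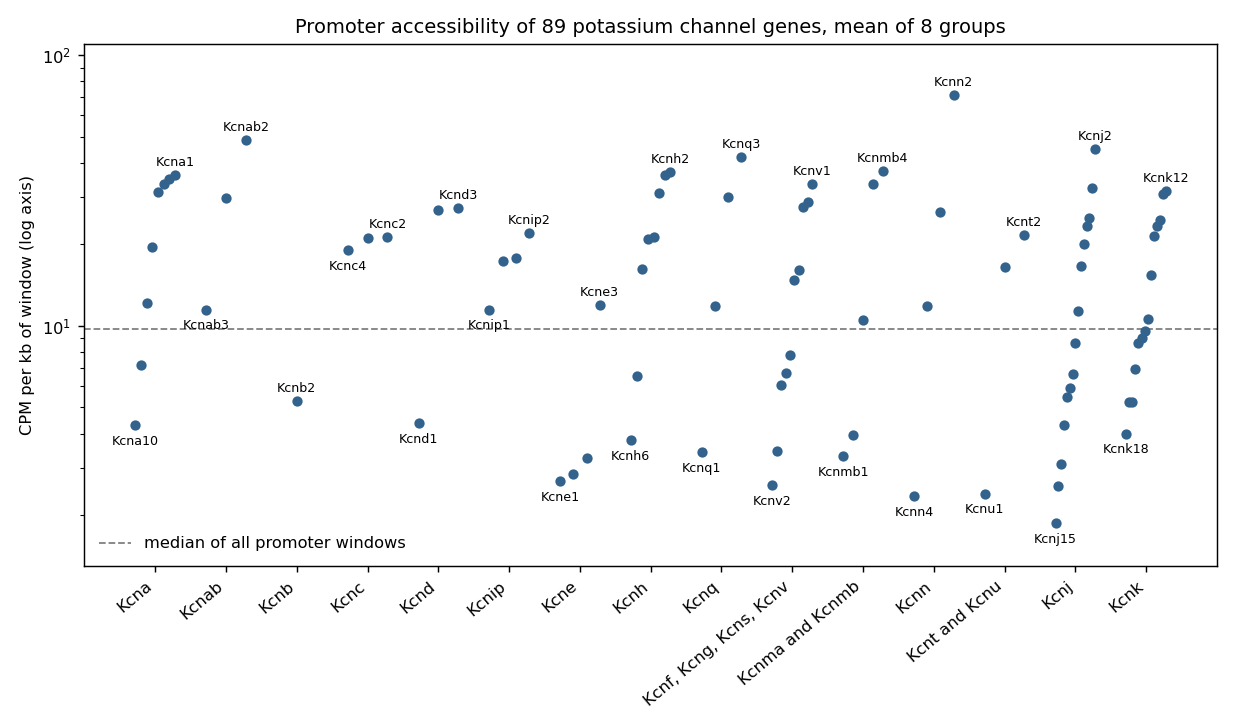
Accessibility of 89 of the 92 members by subfamily, in CPM per kb of window on a log axis, each point 1 gene averaged over the 8 groups, with the highest and lowest gene drawn of each subfamily named and the median of all windows (9.75) dashed. Kcnc genes sit close together above the line, whereas Kcnj, Kcnk and Kcnn reach from under 5 to over 30.

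The first comparison set the 4 SOM+ control libraries against the 4 bulk WT libraries, both regions together. It asks which channel promoters are more or less open in SOM+ than in bulk nuclei. For the CeA it is not shown to set somatostatin cells against the mixture. There the somatostatin marker sum was 194 to 213 CPM in SOM+ against 208 to 268 in bulk nuclei. Of the 92 members, 31 were higher and 28 lower at an adjusted p under 0.05, or 64.1%. Over all windows 61.1% were called, 30.6% higher and 30.6% lower, so the share of members called was near the background. The median member differed by -0.13 on the log2 scale and the median window by -0.07. Without the 4 libraries whose sex label was contradicted, 47 were called, 27 higher and 20 lower, and 45 of the 59 kept their call; 43.9% of all windows were called there. In every fit without 1 library, 44 of the 59 kept it. Groups did not overlap for 32 of the 59, and 37.4% of all windows were called without overlap. In bulk samples, fewer cells of a type and less signal per cell cannot be told apart.

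The largest gain in SOM+ nuclei was at an inward rectifier. Kcnj12, Kir2.2 (mm9 chr11:60835066-60837065), had 57.6 and 52.8 CPM in the CeA SOM+ controls and 71.2 and 84.2 in cortex SOM+ controls. The bulk WT libraries had 25.6 and 27.9 CPM in CeA and 17.8 and 21.7 in cortex. Every SOM+ value lay above every bulk value, with a log2 difference of 1.52 (SE 0.16, adjusted p 1.83e-10).

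Kcnq3, the M-current subunit, had 97.5, 84.1, 60.3 and 41.9 CPM in the SOM+ controls against 90.9, 98.1, 79.4 and 101 in bulk WT. The groups overlapped, the log2 difference was -0.45 (SE 0.13, adjusted p 0.00313), and the call was lost without the 4 contradicted libraries (adjusted p 0.108).

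The Kv3 genes carry the rapid delayed rectifier that lets interneurons fire fast, and they split. Kcnc1 (mm9 chr7:53650838-53652837) had 51.9, 43.1, 67.9 and 67.2 CPM in the SOM+ controls against 37.3, 31.5, 24.4 and 17.3 in bulk WT, with no overlap and a log2 difference of 1.07 (SE 0.17, adjusted p 6.86e-07). Kcnc2 was lower in SOM+ nuclei, at 31.7, 27.2, 37.9 and 21.1 CPM against 40.3, 55.0, 57.2 and 79.7.

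The Kcnc2 groups did not overlap either, with a log2 difference of -0.96 (SE 0.16, adjusted p 2.63e-06). Kcnc4 had 0.34 (SE 0.15, adjusted p 0.0567) and was not called. Over all windows 30.6% were called higher and 30.6% lower in this comparison. In a list of 10 fast-spiking and interneuron channels, 5 were higher (among them Kcnc1, Kcna2 and Kcnab2), 2 lower (Kcnc2 and Kcns3) and 3 not called, with a median of 0.36. Kcnab2 was the most even, at 128 ± 5.92 CPM against 62.1 ± 13.1 (SD, n = 4 each), but its window shares 1408 bases with that of Nphp4. Kcna2, at 0.39 (adjusted p 0.0183), lost its call without the 4 contradicted libraries (adjusted p 0.144) and under total-count (0.162) and cyclic loess scaling (0.603). It also lost it without CeA bulk WT replicate 2 (adjusted p 0.153), cortex bulk WT replicate 1 (0.138) or cortex SOM+ control replicate 2 (0.0518). Kcna1, at 0.15 (adjusted p 0.353), turned to -0.16 under cyclic loess.

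Members with a difference over 2-fold and no overlap included Kcnk7 (1.38), a two-pore family member, Kcnip2 (1.25), a Kv4 partner of the A-type current, Kcne3 (1.17), an ancillary subunit, and Kcnh2 (1.16), the ERG channel. Kcnt1, the sodium-activated Slack channel, differed by 0.99. All of the 18 members chosen for their size and reported kept their call without the 4 contradicted libraries and under every scaling tried. Of the two-pore channels, 6 of 14 were higher, among them Kcnk1 (0.75), Kcnk3 (0.81) and Kcnk12 (0.83), and 2 lower (Kcnk5 and Kcnk16). Of all windows 30.6% were called higher and 30.6% lower.

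**Figure D2:**
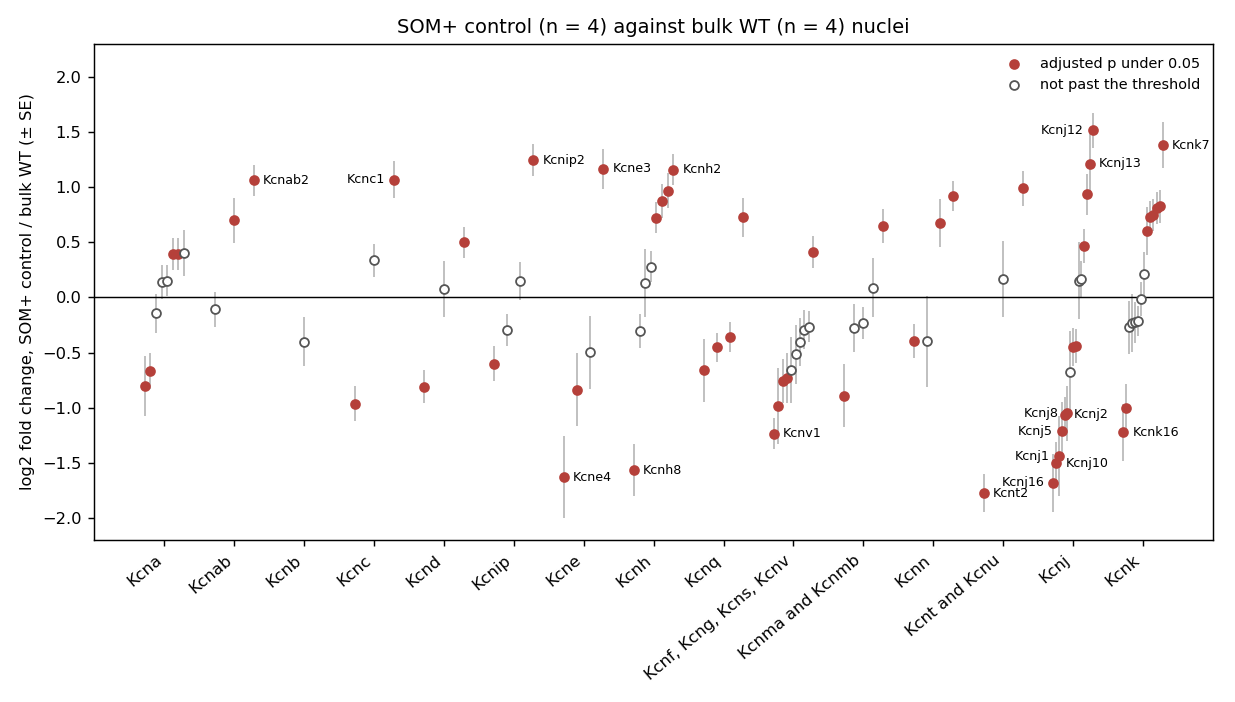
Log2 fold change of SOM+ control over bulk WT nuclei (n = 4 libraries each) for 89 of the 92 members by subfamily, with bars of 1 SE and filled points for an adjusted p under 0.05; genes with a called difference over 1 are named. Kcnc1 sits above 0 and Kcnc2 below it, and Kcnj holds both the highest point, Kcnj12 at 1.52, and most of the low ones.

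The promoters less open in SOM+ nuclei included those of glial channels. Kcnj10, the Kir4.1 subunit that clears K+ in astrocytes, had 11, 8.08, 8.30 and 8.50 CPM in the SOM+ controls against 21.2, 23.2, 27.5 and 31.2 in bulk WT. Its partner Kcnj16 (Kir5.1) had 6.00, 7.00, 4.31 and 4.49 CPM against 11.8, 21.2, 16.9 and 19.6. Both were separated without overlap, at -1.50 (SE 0.19, adjusted p 1.52e-08) for Kcnj10 and -1.68 (SE 0.27, adjusted p 1.01e-06) for Kcnj16.

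Kcnj8, the pore of vascular ATP-sensitive channels, was lower by -1.05 on the log2 scale (SE 0.25, adjusted p 0.000424). Over 7 glial, vascular and immune channels, 3 were lower (Kcnj8, Kcnj10 and Kcnj16) and 2 higher, namely Kcnk13 (0.73) and Kcna3 (0.40). Kcnk6 (-0.27) and Kcnn4 (-0.40) were not called. Of all windows 30.6% were called lower and 30.6% higher. Summed over 12 astrocyte markers, SOM+ libraries had 159 to 222 CPM and bulk libraries 257 to 374, and their part in these differences was not tested. Oligodendrocyte markers were at 151 to 174 against 269 to 411 CPM, and vascular markers at 101 to 121 against 114 to 174.

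The largest drop was at a sodium-activated channel. Kcnt2, Slick (mm9 chr1:142141834-142143833), had 20.9, 25.6, 19.0 and 12.9 CPM in SOM+ controls against 35.3, 48.7, 90.4 and 116 in bulk WT, lowest of all in cortex SOM+ and highest in cortex bulk. Its log2 difference was -1.78 (SE 0.17, adjusted p 7.46e-11). Kcnv1, a silent subunit, fell by 1.24 and Kcnj2 by 1.06, while Kcne4 was at -1.63 (SE 0.37) from only 2.17 to 3.31 CPM in SOM+ controls. Summed over 12 glutamatergic markers, SOM+ libraries had 207 to 271 CPM, CeA bulk 263 to 333 and cortex bulk 604 to 761, and their part in these differences was not tested.

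Of the 4 GIRK subunits, which carry the inhibitory response to GABA-B, opioid and somatostatin receptors, 3 were lower in SOM+ nuclei and 0 higher. The share of all windows called lower was 30.6%, and that called higher 30.6%. Kcnj5 was at -1.21 (SE 0.26, adjusted p 0.000124), Kcnj3 at -0.45 (adjusted p 0.0248) and Kcnj9 at -0.44 (adjusted p 0.011), with overlap for the latter pair. Kcnj5 was called within both regions, but its CeA call was lost under cyclic loess (adjusted p 0.260). Kcnj3 and Kcnj9 were called within cortex and not within the CeA. In the CeA, Kcnj3 had 65.4 and 45.0 CPM in SOM+ controls against 45.0 and 65.7 in bulk WT. Kcnj9 had 35.9 and 57.9 CPM there against 47.5 and 37.8. Kcnj6 was at 0.16 (adjusted p 0.40), and its sign turned to -0.18 under cyclic loess. Kcnj3 lost its call when sex was taken from the Y-linked promoters (adjusted p 0.120).

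The A-type current, which delays firing, is carried by Kv4 subunits (Kcnd) with KChIP partners (Kcnip). Here Kcnip2 and Kcnd3 (0.50) were higher, and Kcnd2 (-0.81) and Kcnip4 (-0.60) lower, out of 7 genes, against 30.6% of all windows each way. The Kcnd3 call ended under cyclic loess (adjusted p 0.349), and its window shares 1374 bases with that of Kcnd3os. Kcnma1, the BK channel pore, was at 0.65 and lost its call under cyclic loess (adjusted p 0.164). Kcnn2 was at -0.40 (adjusted p 0.024) and lost its call without the 4 contradicted libraries (adjusted p 0.135). Kcnk2 (-0.01), Kcnab1 (-0.11) and Kcnip1 (0.15) were not called, although under cyclic loess Kcnk2 was at -0.40 (adjusted p 0.0382) and Kcnab1 at -0.46 (adjusted p 0.0275).

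More members were called in cortex than in the CeA. In cortex 64 members were called (33 higher, 31 lower, 69.6%, against 62.1% of all windows, 31.5% higher and 30.6% lower), and in CeA 20 (12 higher, 8 lower, 21.7%, against 23.2%, 13.7% higher and 9.58% lower). Of these, 18 were called with the same sign in both regions and 0 with opposite signs. Another 46 were called in cortex alone and 2 in CeA alone (Kcnmb2 and Kcns3). The shares of all windows called in both regions or in 1 alone were not counted. Members described above and called in cortex alone included Kcnc1, Kcnt1, Kcnv1, Kcne4, Kcnj2, Kcnj3, Kcnj8, Kcnj9, Kcnd2, Kcnk1, Kcnk3 and Kcnk12. Kcnmb2 and Kcns3 lost their CeA call under cyclic loess (adjusted p 0.152 and 0.0530). Kcns3 also lost it without the 4 contradicted libraries (adjusted p 0.104), without either CeA bulk WT library or without CeA SOM+ control replicate 2 (-0.82). Kcnmb2 went from -0.93 to -0.42 without CeA bulk WT replicate 2 and to -0.59 without CeA SOM+ control replicate 1, and was not called in either. Kcnj5 lost its CeA call under cyclic loess (-0.54, adjusted p 0.260) and with sex from the Y-linked promoters (-0.95, adjusted p 0.0717). Without the sex term it was at -0.98 (adjusted p 0.0514), and without CeA bulk WT replicate 1 at -0.49. Kcnj16 and Kcnk5 lost their CeA call under cyclic loess (adjusted p 0.140 and 0.0680). Kcnt2 was at -2.70 (SE 0.25) in cortex and -0.85 (SE 0.25) in CeA, and Kcnj12 at 1.99 (SE 0.22) and 1.04 (SE 0.22). Besides Kcnj12, the largest called in the CeA included Kcnj13, Kcne3 and Kcnk7 (1.2 to 0.91) upward, and Kcnj16, Kcnj10, Kcnj5, Kcnk5, Kcns3 and Kcnmb2 (-1.32 to -0.93) downward. In cortex they included Kcnk7, Kcnip2, Kcnj11, Kcnc1, Kcnt1, Kcnh2 and Kcnn1 (1.86 to 1.45) upward, and Kcnh8, Kcne4, Kcnv1, Kcnj16, Kcnk16, Kcnj10, Kcnj1, Kcnj2 and Kcnd2 (-2.51 to -1.55) downward. Without the 4 contradicted libraries 49 were called in cortex (26 higher, 23 lower, against 49.1% of all windows), and Kcnn1 (0.91, adjusted p 0.0535) and Kcnj1 (-1.22, adjusted p 0.146) lost their call. Kcnj1 also lost it without cortex SOM+ control replicate 2 (-0.90) or cortex bulk WT replicate 1 (-1.22). In every fit without 1 library, 42 of the 64 calls in cortex and 3 of the 20 in the CeA were kept. In the CeA the count dropped to 5 without the 4 contradicted libraries (against 6.17% of all windows), to 7 without CeA bulk WT replicate 1 and to 13 under cyclic loess, and total-count scaling turned its split to 7 higher and 12 lower.

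The split by level moved with the scaling. Members above the median window were called higher 28 times and lower 13 times, and those below it 3 and 15 times. Under cyclic loess, which fits a trend over level, these became 18 and 21 above it, and 4 and 10 below it, 53 calls in all (22 higher, 31 lower). Scaling by total count gave 24 higher and 38 lower, with the median window moved from -0.07 to -0.27. No called member changed sign under either, and 44 of the 59 kept their call under cyclic loess.

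**Figure D3:**
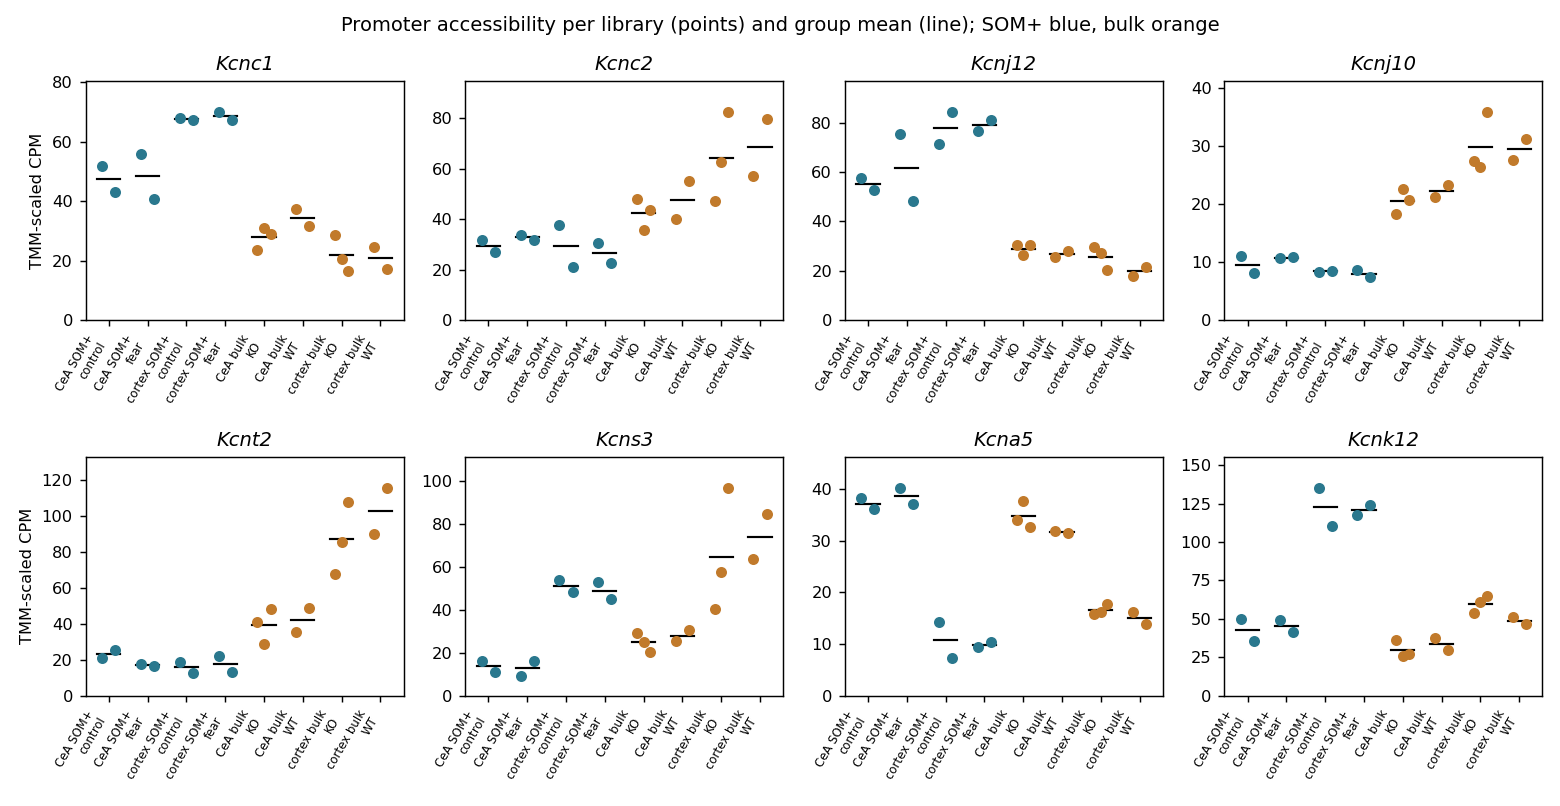
TMM-scaled CPM of 8 members in each of the 18 libraries (points) with group means (lines), SOM+ in blue and bulk in orange, every vertical axis starting at 0. Kcnc1 and Kcnj12 are higher and Kcnj10 and Kcnt2 lower in every SOM+ library than in every bulk library, while Kcna5 and Kcnk12 follow the region.

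The CeA and cortex were then compared within SOM+ nuclei, over 4 libraries each, control and fear-conditioned together. Here 23 members were more open in the CeA and 29 in cortex, 56.5% against 48.3% of all windows (21.1% higher and 27.1% lower). Over 2-fold, 9 were higher and 7 lower. Groups did not overlap for 46 of the 52; over all windows 39.0% were called without overlap. In every fit without 1 library, 36 of the 52 kept their call. The split differed by level. Of the 58 members above the median window, 12 were called higher and 27 lower in the CeA. Of the 34 below it, 11 were higher and 2 lower. Cyclic loess gave 15 and 17 above it, and 6 and 0 below it. The CeA libraries were shallower and had the lower ratio of open to closed promoters given above, and its part in these differences was not tested.

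Kcna5, the Kv1.5 subunit (mm9 chr6:126484574-126486573), had 38.2, 36.1, 40.2 and 37.2 CPM in the CeA and 14.2, 7.32, 9.51 and 10.4 in cortex. It differed by 1.92 (SE 0.17, adjusted p 1.42e-26). Kcng2, a modifier subunit, had 19.7, 23.4, 20.9 and 23.0 CPM against 5.82, 7.2, 9.05 and 6.66, a log2 difference of 1.64 (SE 0.20).

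Kcnip4, a Kv4 partner, followed at 1.56 (SE 0.16), with 44.0 ± 7.35 CPM against 15.5 ± 1.61 (SD, n = 4 each). Kcnb2 (Kv2.2) was at 1.36, Kcnh8 at 1.23 and Kcnq5, an M-current subunit, at 1.14. Kcnq3 was also more open in the CeA (0.89). Kcng1 stood at 1.01 and kept its call under cyclic loess. Kcnn4 (1.23), Kcnj5 (1.00) and Kcnj1 (1.00), all under 10 CPM, lost theirs under cyclic loess (adjusted p 0.157, 0.0628 and 0.278). Kcnj1 also lost it without CeA control replicate 2, cortex control replicate 2 or either cortex fear library, and Kcnn4 without CeA control replicate 1.

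In the other direction, Kcns3, a Kv2 modifier known from parvalbumin interneurons (mm9 chr12:11156180-11158648), had 16.5, 11.3, 9.17 and 16.4 CPM in the CeA and 53.8, 48.5, 52.9 and 45.0 in cortex. Its log2 difference was -1.88 (SE 0.17, adjusted p 7.12e-27). Kcnmb2 had 10.5, 12.1, 9.54 and 7.56 CPM against 28.1, 27.5, 32.6 and 33.4, at -1.57 (SE 0.19).

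Of the 14 two-pore channels, 7 were less open in CeA than in cortex SOM+ nuclei and 1 more open (Kcnk7, 0.64). Of all windows 27.1% were called lower and 21.1% higher. Kcnk12, the silent THIK-2 subunit, had 44.1 ± 6.67 CPM against 122 ± 10.4 (SD, n = 4 each; -1.41) and Kcnk1 30.1 ± 5.31 against 80.6 ± 2.36 (-1.37). The leak channels Kcnk3 (TASK-1, -0.82), Kcnk4 (TRAAK, -0.76) and Kcnk2 (TREK-1, -0.62) followed. Kcnn1 (SK1, -1.10), Kcnip1 (-1.09), Kcnj11 (Kir6.2, -1.08), Kcnab3 (-0.96), Kcnc4 (-0.88) and Kcnh2 (-0.85) completed the 10 largest. Kcnj6, at -0.82, and Kcnj5 thus lay on opposite sides among the GIRK subunits.

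Among the other members described for every comparison, Kcna1 was higher in the CeA (0.46), and Kcna2 (-0.54) and Kcnc1 (-0.45) lower, but the latter pair lost their call under cyclic loess (adjusted p 0.0978 and 0.217). Kcnd2 was at 0.60, and at 0.35 and not called without CeA fear replicate 1 (adjusted p 0.097). Kcnc2 (0.19), Kcnd3 (-0.25), Kcnma1 (0.22), Kcnn2 (0.35), Kcnj3 (0.15), Kcnj10 (0.36), Kcnab1 (0.19) and Kcnip2 (-0.02) were not called. Total-count scaling, which moved the median window from 0.04 to 0.26, turned the split to 34 higher and 21 lower, a stricter filter on low counts gave 28 and 23, and cyclic loess gave 21 and 17. No called member changed sign, and 35 of 52 kept their call under cyclic loess.

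Bulk nuclei, over 5 libraries per region, showed 12 members more open in the CeA and 18 in cortex, 32.6% against 16.9% of all windows (6.9% higher and 9.98% lower). Kcna5 again led the CeA side, with 34.1, 37.7, 32.6, 31.9 and 31.5 CPM against 15.8, 16.2, 17.8, 16.2 and 13.9 and a log2 difference of 1.09 (SE 0.15, adjusted p 3.31e-05). Kcns3 led the cortex side, with 29.3, 25.1, 20.3, 25.6 and 30.5 CPM against 40.2, 57.5, 96.7, 63.6 and 84.4, at -1.35 (SE 0.18, adjusted p 2.88e-05). Both sets were free of overlap, as were 21 of the 30 called members, against 8.31% of all windows called without overlap.

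On the CeA side Kcnn3 (SK3, 0.91) and Kcnip2 (0.90) followed. On the cortex side Kcnk16 (-1.27), Kcnt2 (-1.20) and Kcnv1 (-0.98) were next. Kcnh4, Kcnj4 and Kcna1 (0.66, 0.59 and 0.36) and Kcnk5, Kcnk9, Kcng4, Kcnk12, Kcnj8 and Kcnj9 (-0.83 to -0.67) were called too. Those 9 all lost their call without the 4 contradicted libraries, a setting that left 8 calls among the 92 and 2.56% of all windows called. In every fit without 1 library, 9 of the 30 kept their call. Of the GIRK subunits 3 of 4 were lower in the CeA, Kcnj3 (-0.74), Kcnj9 (-0.67) and Kcnj6 (-0.56), against 9.98% of all windows. Without the 4 contradicted libraries, which leaves 1 WT library per region, they were at -0.69, -0.76 and -0.32 and lost their call. Kcnc2 (-0.54) and Kcnj10 (-0.45) were lower in the CeA with the same loss (adjusted p 0.361 and 0.363). Kcna2, Kcnd3, Kcnq3, Kcnma1, Kcnn2, Kcnk1, Kcnk2, Kcnab1 and Kcnip1 were not called, with estimates from -0.30 to 0.33. The count was 10 without cortex bulk WT replicate 2, 19 under cyclic loess (8 higher, 11 lower), and 15 each way under total-count scaling.

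The regional difference itself was compared between SOM+ and bulk nuclei as an interaction over all 18 libraries. It differed for 48 members, 22 higher and 26 lower in SOM+, 52.2% against 41.5% of all windows. Without the 4 contradicted libraries 29 were called (against 29.9% of all windows), under cyclic loess 34, with 27 higher and 7 lower, and under total-count scaling 27 higher and 19 lower. Both regional differences were called with the same sign for 11 members: Kcna1, Kcna5, Kcnc4, Kcng2, Kcnip4, Kcnj6, Kcnk12, Kcnk7, Kcnk9, Kcnn3 and Kcns3. They were called with opposite signs for 4, namely Kcnc1, Kcnd2, Kcnj4 and Kcnv1. The shares of all windows with the same or opposite signs were not counted.

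Kcnv1 was the clearest of these. SOM+ nuclei had 42.4 to 49.7 CPM in the CeA and 24 to 38.3 in cortex, whereas bulk nuclei had 58.7 to 69.4 in the CeA and 108 to 147 in cortex. The CeA was thus higher in SOM+ nuclei and cortex in bulk, without overlap in either, and the regional differences themselves differed by 1.56 (SE 0.19, adjusted p 5.23e-08).

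Kcnd2 (Kv4.2) was at 0.60 in SOM+ and -0.58 in bulk nuclei, a difference of 1.13 (SE 0.20, adjusted p 2.53e-05). Kcnc1 was at -0.45 and 0.55 (difference -1.03, SE 0.22, adjusted p 0.000257), and Kcnj4, the Kir2.3 rectifier, at -0.53 and 0.59 (difference -1.15, SE 0.21, adjusted p 2.5e-05). The difference for Kcnc1 missed the threshold under cyclic loess (adjusted p 0.0577), and the bulk value alone was not called without the 4 contradicted libraries for Kcnc1 (adjusted p 0.336), Kcnd2 (0.291) and Kcnj4 (0.0762). In SOM+ nuclei the Kcnd2 value fell to 0.35 without CeA fear replicate 1 (adjusted p 0.097), and Kcnc1 was not called without CeA control replicate 2 (-0.32) or CeA fear replicate 2 (-0.33). In bulk nuclei Kcnd2 was not called without any 1 of the 4 WT libraries, Kcnc1 without any 1 of these or KO replicate 2 of either region or CeA KO replicate 3, and Kcnj4 without WT replicate 2 of either region. Kcnv1 kept its call in every such fit, in both kinds of nuclei.

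Several members had a regional difference in 1 kind of nuclei that differed from the other. Kcnmb2 was at -1.57 in SOM+ and 0.07 in bulk nuclei (difference -1.70, SE 0.30). Kcnk1 was at -1.37 and -0.16 (-1.25), Kcnip1 at -1.09 and 0.24 (-1.36) and Kcnj11 at -1.08 and 0.30 (-1.41). Kcnt2 was at 0.27 and -1.20 (1.47, SE 0.24) and Kcnh8 at 1.23 and -0.33 (1.53). Differences were also called for Kcnq5 (1.17), Kcnip4 (1.02), Kcnt1 (-1.04) and Kcnip2 (-0.96). In bulk cortex the glutamatergic marker sum was 604 to 761 CPM against 263 to 333 in bulk CeA, and in SOM+ nuclei it was 207 to 271 in both regions together; its part in these differences was not tested.

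**Figure D4:**
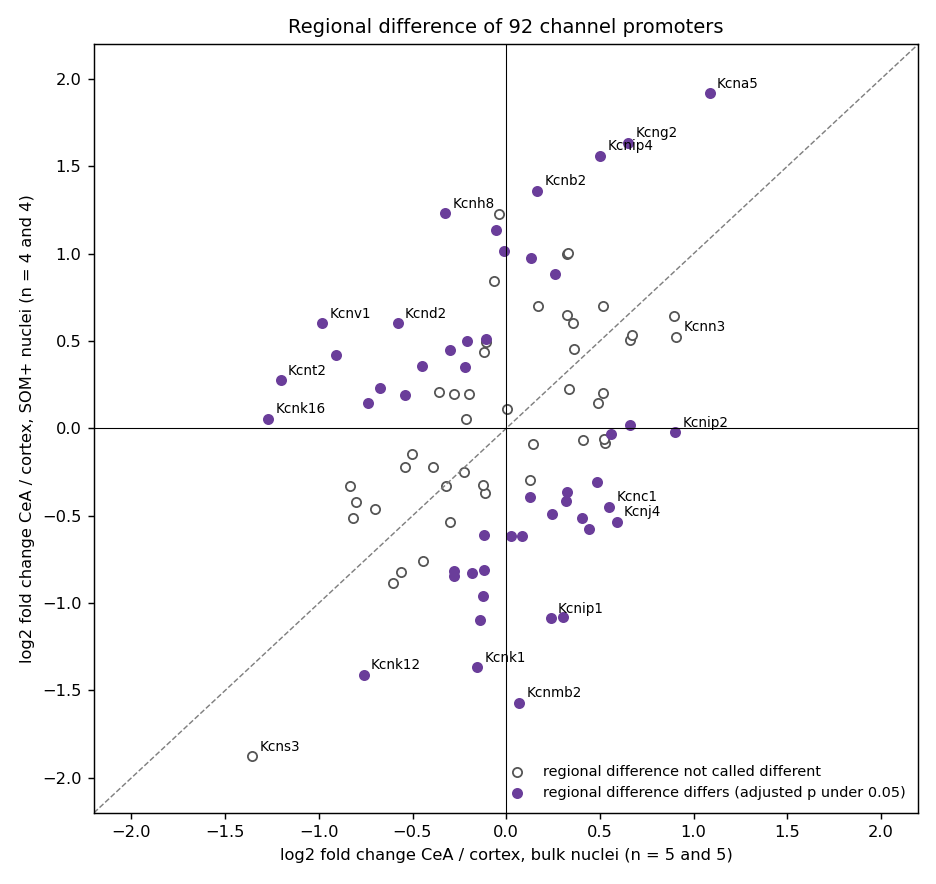
Log2 fold change of CeA over cortex for the 92 members in bulk nuclei (horizontal, n = 5 and 5) and in SOM+ nuclei (vertical, n = 4 and 4), with filled points where the 2 differences differ at an adjusted p under 0.05 and a dashed line of equality. Kcna5 (1.09 in bulk, 1.92 in SOM+) is a filled point at the upper right and Kcns3 (-1.35, -1.88) an open one at the lower left, while Kcnv1 and Kcnd2 lie upper left, Kcnc1 and Kcnj4 lower right.

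Genes with several start sites showed that a symbol can hold promoters of unlike behaviour. Kcnip4 had 5 windows on mm9 chromosome 5, and 3 of them were more open in CeA SOM+ nuclei, at 1.56, 1.13 and 1.04, while those starting at 48872896 and 49279797 were at -0.23 and 0.37 and not called. Kcnip2 had windows starting at 45889554 and 45885782 on chromosome 19. Both were more open in SOM+ than in bulk nuclei (1.25 and 1.31) and in CeA than in cortex bulk nuclei (0.90 and 0.69), but between regions of SOM+ nuclei they were at -0.02 (not called) and -0.70 (adjusted p 0.000137).

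Kcnj12 was more open in SOM+ nuclei at its main window (1.52), and its second, starting at 60878306, was at 0.03 (adjusted p 0.917). At Kcnj16, 3 of 4 windows were lower in SOM+ nuclei, by -1.68, -1.66 and -1.60 on the log2 scale. Kcnh8 was lower in SOM+ nuclei and more open in the CeA within them at both windows. The second Kcnip1 window was at 0.30 between regions of SOM+ nuclei (adjusted p 0.336), against -1.09 at its main one. Between SOM+ and bulk nuclei, the second windows of Kcnh2, Kcne3 and Kcnt1 were at 0.46, 0.54 and 0.45 and not called. Their adjusted p were 0.0970, 0.0944 and 0.0808. That of Kcnab2 was called at 0.60 (adjusted p 0.00706). Of the 115 windows of the members, 70 were called between SOM+ and bulk nuclei (33 higher, 37 lower). Between regions of SOM+ nuclei 63 were called (29 higher, 34 lower). Over all windows, 61.1% and 48.3% were called in these comparisons.

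Of 28 partners outside the Kcn names, among them HCN channels, K-ATP sulfonylurea receptors, Kv1 clustering proteins and GIRK regulators, 10 were higher and 6 lower in SOM+ nuclei than in bulk WT. That is 57.1%, near the 61.1% of all windows, and 6 and 4 without the 4 contradicted libraries. Hcn3 (1.25) and Hcn4 (1.04), of the hyperpolarisation-activated current, Abcc8 (1.06), the partner of Kir6.2, and Amigo1 (0.97), a Kv2 partner, led upward. Kctd12 (-1.60), a GABA-B auxiliary subunit, Lrrc55 (-1.58), Abcc9 (-1.42) and Kctd8 (-1.01) led downward.

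Between regions of SOM+ nuclei 11 partners were lower in the CeA, led by Cntn2 (-1.46), Hcn4 (-1.20), Rgs6 (-1.19) and Abcc8 (-1.15), and 5 higher, led by Lrrc52 (0.97), Lrrc55 (0.94) and Lgi1 (0.66), 57.1% against 48.3% of all windows. Kcnj11 and Abcc8, pore and receptor of the same channel, were both higher in SOM+ than in bulk nuclei (0.94 and 1.06) and both lower in CeA than in cortex SOM+ nuclei. The difference from bulk was called within cortex for both (1.74 and 1.93) and within the CeA for neither (0.13 and 0.18, adjusted p 0.767 and 0.699). In bulk nuclei 8 were lower in the CeA, led by Cntnap2 (-1.01), Abcc9 (-0.83), Adam22 (-0.70) and Kctd8 (-0.54), and 0 higher, 28.6% against 16.9% of all windows. Without the 4 contradicted libraries none of these 8 was called.

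Fear conditioning gave no call. In SOM+ nuclei 0 of 92 members passed in either region or averaged over both, and 0.0% of all windows did. At an unadjusted p under 0.05, edgeR gave 2 members averaged over regions, 3 in the CeA and 0 in cortex. Of all 25157 windows it gave 530, 598 and 288 in the same order. DESeq2 and cyclic loess gave 0 adjusted calls as well. The 3 smallest p-values averaged over regions were at Kcna10 (0.67, SE 0.25), Kcnk5 (0.42, SE 0.21) and Kcnv2 (0.68, SE 0.37), each with an adjusted p of 0.9998.

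Kcna10, the lead, shows the scale. Its SOM+ libraries had 6.13 and 3.23 CPM in CeA controls against 8.99 and 9.86 after conditioning, and 7.12 and 7.2 against 11.2 and 7.40 in cortex. In the CeA alone it was at 0.95, Kcnk5 at 0.76 and Kcnn1 at 0.50. In cortex the smallest p-values were at Kcnh8 (0.69), Kcnj2 (0.38) and Kcnj15 (-1.04). The median SE was 0.16 averaged over regions, and 87 of 92 members had an estimate under 0.5 in size.

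Deletion of Erbb4 in SOM+ cells gave no call in bulk nuclei either, with 0 of 92 members and 0.0% of windows. At an unadjusted p under 0.05, edgeR gave 3 members averaged over regions, 1 in the CeA and 4 in cortex. Of all 25196 windows it gave 872, 745 and 823 in the same order. DESeq2 and cyclic loess gave 0 adjusted calls. Without the 4 contradicted libraries edgeR gave 0 of 92 too, averaged over regions and in each. SOM+ cells are a part of the bulk nuclei only, and the Erbb4 promoter, at 26 to 41.4 CPM in KO and 33.6 to 45.8 in WT, is a window that does not test the deletion. Since WT replicate 1 of each region is the sole library labelled female, the labelled-sex term in effect leaves the comparison averaged over regions to WT replicate 2. Within each region WT replicate 1 still enters, because both regions share 1 sex term.

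Kcnt1 (0.53, SE 0.22), Kcne3 (0.52, SE 0.23) and Kcnh8 (-0.49, SE 0.23) had the smallest p-values averaged over regions, at an adjusted p of 0.9996. In the CeA these included Kcna3 (0.55) and Kcnt1 (0.47), and in cortex they were Kcnk7 (0.93), Kcnh8 (-0.63) and Kcnt1 (0.59). Kcnt1 in cortex had 25.9, 22.5 and 20.1 CPM in KO libraries against 21.4 and 13.1 in WT, and without WT replicate 2 its estimate was -0.02. In cortex, 4 members were called without KO replicate 3, as were 3.91% of all windows. The median SE was 0.21 averaged over regions.

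**Figure D5:**
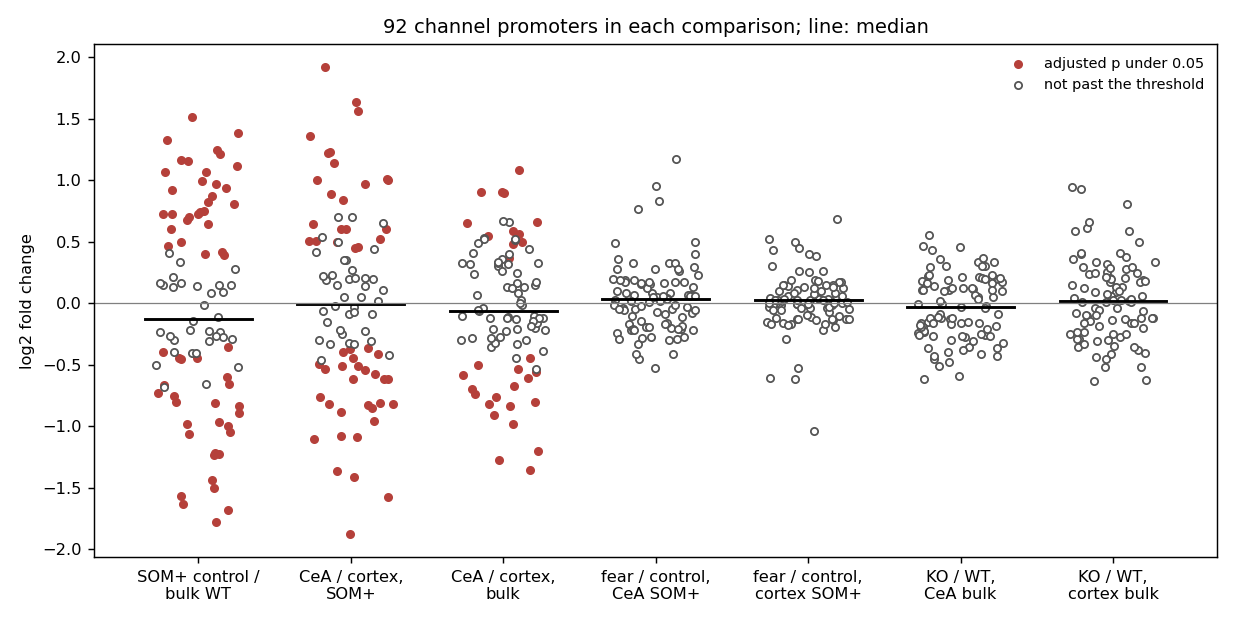
Log2 fold change of the 92 members in 7 comparisons, filled points for an adjusted p under 0.05 and a bar at the median. Filled points appear between SOM+ and bulk nuclei and between regions, and none in the 4 comparisons of fear conditioning or Erbb4 KO, where most points lie within 0.5 of 0.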

How the data were processed

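Raw read counts per promoter window (build mm9) were used as deposited by the authors; the submitters' processing notes name MACS2, Bowtie2, Picard 1.88, Trimmomatic 0.32 and bcl2fastq 2.16.0.10, and the counting program is not given in the sources used here. Of 26728 entries, 663 repeats of a window were dropped, leaving 26065. Libraries were scaled by TMM and tested with edgeR 4.0.16 (R 4.3.3; quasi-likelihood F test, minimum count 10, total 15), in fits over 18, 10 bulk or 8 SOM+ libraries, with labelled sex a term where bulk libraries entered. P-values were Benjamini-Hochberg adjusted over all windows tested (25246, 25196 and 25157), with a threshold of 0.05. The code was tested on simulated data. DESeq2 1.42.0 and limma 3.58.1 (cyclic loess, prior count 2) were alternatives. Named in each comparison were up to 10 called members per direction by size without overlap of groups, otherwise the 3 smallest p-values, 19 fixed members and the extremes of level; others named for context were chosen after their values were seen. Members and lists were chosen with earlier results of these data known. Leaving out the 4 contradicted libraries and taking sex from the Y-linked promoters were added after seeing the data. A few members and partners are not reported here. Overlapping windows share reads, and strand is not separable. Besides Kcnab2 and Kcnd3, the windows of Kcnmb4 (1639 bases, Kcnmb4os2), Kcnk3 (1550, Gm9899), Kcnma1 (1215, 4930519K11Rik) and Kcnu1 (72, Ash2l) overlapped others.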

Additional observations from a re-analysis of the deposited data

Results flagged for a closer look

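The CeA against cortex difference differed between SOM+ and bulk nuclei, by an interaction test across all 18 libraries, for 48 of the 92 members. That is 52.2% against 41.5% of all windows. For 4 of them the regional difference was called in both kinds of nuclei with opposite signs. The share of all windows called so was not counted. Without the 4 contradicted libraries the bulk difference was not called for Kcnc1, Kcnd2 and Kcnj4. On the log2 scale the SOM+ difference minus the bulk difference was -1.03 for Kcnc1, 1.13 for Kcnd2, -1.15 for Kcnj4 and 1.56 for Kcnv1. SOM+ and bulk libraries come from different mouse lines and sorts, which cannot be told apart from cell type here.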

How the results depend on the processing

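Counts of members called moved by over 1.5 times in 3 comparisons. SOM+ against bulk within the CeA went from 20 to 13 under cyclic loess and 5 without the 4 contradicted libraries, bulk CeA against cortex from 30 to 19 and 8, and the regional difference between kinds of nuclei from 48 to 29 without those libraries; that setting has fewer samples, and otherwise the cause was not tested. Without 1 library at a time, counts ran from 50 to 63 (SOM+ against bulk), 7 to 24 (within CeA), 50 to 68 (within cortex), 44 to 52 (regions, SOM+), 10 to 36 (regions, bulk) and 41 to 51 (their difference), and were 0 for fear conditioning and for Erbb4 KO, except 0 to 4 for KO in cortex. With the replicate number as a block they were 58, 23, 65, 56, 27 and 52, and 0 for fear and KO. Deviations from group means correlated over 0.1 in 6 of 12 same-numbered pairs of SOM+ libraries (r from -0.026 to 0.192) and 0 of 12 other-numbered ones. In bulk libraries this held for 5 of 13 (-0.366 to 0.406) and 11 of 24. The 2 libraries of a SOM+ group deviate as mirror images, so each SOM+ value recurs and these pairs are not independent. The numbers were not taken as a pairing. In SOM+ nuclei the number also coincides with labelled sex, and in bulk nuclei replicates 1 and 2 of each genotype had the same Y-linked state in both regions.

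Single members that were not called turned sign in 35 instances. SOM+ against bulk, cyclic loess gave Kcna1 -0.16, Kcnj6 -0.18 and Kcnip1 -0.061, and total count gave Kcna1 -0.048, Kcnj6 -0.036 and Kcnip1 -0.046. Without the contradicted libraries Kcnj6 was at -0.013, and with sex from the Y-linked promoters Kcnk2 was at 0.047 and Kcnab1 at 0.024. Kcnip2 between SOM+ regions was at 0.013 (DESeq2), 0.23 (cyclic loess), 0.047 (no filter), 0.10 (stricter filter) and 0.19 (total count). Kcnn2 between bulk regions was at 0.014 under cyclic loess. In the difference of regions, cyclic loess gave Kcnd3 0.21, Kcnma1 0.066 and Kcnj6 0.070, and total count Kcnd3 0.077 and Kcnma1 0.014. Without 1 library at a time, Kcnt1 in cortex KO ran from -0.023 to 0.84, Kcnk2 from -0.045 to 0.021 (SOM+ against bulk) and -0.0046 to 0.14 (bulk regions), Kcnip2 from -0.17 to 0.10, and in the difference of regions Kcna1 from -0.064 to 0.19, Kcnd3 from -0.21 to 0.067 and Kcnma1 from -0.32 to 0.0051. For depth, 3 counts, the limit that a count of 0 allows, equal 0.205 to 1.13 CPM per library, and no member was at 0 in any library.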
